A study of Homo sapiens with 6 samples.

Results

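The NF-κB transcription factors and the proteins that hold them back were followed in a human leukemia line with and without forced expression of EGR3, an early growth response zinc finger transcription factor. The genes were taken by name from the count table, as the 5 subunit genes *NFKB1*, *NFKB2*, *REL*, *RELA* and *RELB* and the 4 inhibitor genes *NFKBIA*, *NFKBIB*, *NFKBIE* and *TNFAIP3*. These 9 genes were found once each among 35410 listed genes, and all 9 passed the filter on low counts in both lines. The cells are labelled SEM, an established proB acute lymphoblastic leukemia line with a KMT2A::AFF1 fusion, although the markers below go against that label in part. SEM::EGR3 carries a doxycycline-inducible *EGR3* vector and SEM::mock the empty vector. Both lines received 1 µg/mL doxycycline 48 h before the RNA was prepared, so the comparison is between vectors and not between induced and uninduced cells. Each line is represented by 3 libraries, labelled as biological replicates. RNA was counted by MACE-Seq, which reads the 3′ ends of polyadenylated transcripts. The question was how the RNA of NF-κB and its inhibitors differs when EGR3 is induced.

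NF-κB proteins bind DNA as dimers of subunits that share the Rel homology domain. In resting cells the dimers are kept in the cytoplasm by IκB proteins until the IκB kinase (IKK) phosphorylates a pair of serines, after which IκB is ubiquitinated and degraded. *NFKBIA* and *TNFAIP3* are known targets of NF-κB itself and thereby close a negative feedback loop. In B cells the pathway serves survival and activation downstream of the B cell receptor, CD40 and the BAFF receptor. RNA levels do not report on phosphorylation, degradation of IκB or the location of the dimers, none of which was measured.

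RefSeq (GRCh38.p14) gave 12 promoter windows, 250 bases before to 50 bases after a transcript start, for 7 of the 9 genes, and 7 of these 12 windows, in 6 genes, hold a κB motif. The windows are shown because they carry the letters that NF-κB is known to bind at its own genes. The motif was searched on both strands as GGGNNTTTCC or GGGNNTTCCC, and overlapping matches were merged. Capitals mark the matched stretch, and each sequence runs 5′ to 3′ on the strand of the gene.
*NFKB1*, chr4:102501290-102501339, plus strand: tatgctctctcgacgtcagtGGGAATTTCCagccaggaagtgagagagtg
*NFKB2*, chr10:102394451-102394530, plus strand: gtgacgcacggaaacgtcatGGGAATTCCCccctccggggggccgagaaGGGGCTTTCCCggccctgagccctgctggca
*NFKB2*, a further start, chr10:102395664-102395704, plus strand: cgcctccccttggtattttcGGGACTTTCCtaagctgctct
*REL*, chr2:60881508-60881557, plus strand: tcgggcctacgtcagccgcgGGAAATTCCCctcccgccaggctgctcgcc
*NFKBIA*, chr14:35404801-35404850, minus strand: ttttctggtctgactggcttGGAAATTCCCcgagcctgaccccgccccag
*NFKBIB*, chr19:38899921-38899968, plus strand: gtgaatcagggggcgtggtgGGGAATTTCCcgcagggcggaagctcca
*TNFAIP3*, chr6:137867172-137867233, plus strand: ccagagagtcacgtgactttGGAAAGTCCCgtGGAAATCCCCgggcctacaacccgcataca

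All of these stretches lie upstream of the RefSeq transcript start that defines their window, which can differ from the gene start in GENCODE. The window of the further *NFKB2* start holds another match at position -176 from that start, which is not shown. The *RELA* windows hold no match, and the windows of *RELB* and *NFKBIE* were not analysed here. Of 35116 promoter windows in the same table, 3.88% hold either form. The EGR motif GCGNGGGCG, searched on both strands, was found in 3 of the 12 windows, 1 each of *NFKB1*, *NFKB2* and *REL*, and in 9.43% of all windows. A match is a description of the letters and not evidence of binding.

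*NFKBIA* and *NFKBIE* differ in the coding sequence around the serine pair that IKK phosphorylates. It is shown because the same kinase acts on both inhibitors, whereas their RNA levels moved in opposite directions. The codons were read from GENCODE v29 on GRCh38, with the serine codons in capitals, and lie in exon 1 of 6 in each transcript.
*NFKBIA*, codons 32 and 36, chr14:35404528-35404563, minus strand: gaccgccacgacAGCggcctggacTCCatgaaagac
*NFKBIE*, codons 157 and 161, chr6:44265272-44265307, minus strand: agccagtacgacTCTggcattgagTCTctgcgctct

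The SEM::mock libraries held 5286115 to 6181388 counts and the SEM::EGR3 libraries 7293092 to 15106018, so counting error is larger in SEM::mock. Which line had the larger spread between replicates differed from gene to gene. The transgene matched the labels, with *EGR3* counts of 8, 10 and 6 in the SEM::mock libraries and of 9768, 4952 and 5557 in those of SEM::EGR3. The SEM::mock libraries went against the label proB in their markers. Of 13 proB markers, 9 had at most 3 counts in each SEM::mock library, and 3 had at most 3 counts in each SEM::EGR3 library. Among the 9 were *PAX5*, with 1, 1 and 2 counts in SEM::mock, and *EBF1*, with 0 in each. In SEM::EGR3, *PAX5* had 3410, 1443 and 1760 counts. The summed proB level was 133 to 135.5 counts per 1000000 library counts (CPM) in SEM::mock, nearly all of it from *TCF3*, and 665 to 700 in SEM::EGR3. *FLT3*, a target of KMT2A fusions that is high in this leukemia, was counted 1, 0 and 4 times in SEM::mock. It rose to 4998, 2285 and 2961 counts in SEM::EGR3, and the 8 KMT2A fusion targets summed to 257 to 284.6 CPM against 877.9 to 970.3. Not all 8 were low in SEM::mock, where *CDK6* stood at 140.4 CPM against 318.5 in SEM::EGR3. *LMO2* alone went the other way, from 109.7 to 31.8 CPM. Erythroid and megakaryocyte markers were high in both lines, with sums of 4957 to 5259 CPM in SEM::mock and 6175 to 6423 in SEM::EGR3. The fetal globin gene *HBG2* led in SEM::mock with 2333 ± 38.1 CPM, and the embryonic globin gene *HBZ* led in SEM::EGR3 with 2108 ± 92.9 CPM (SD, n = 3 per line). Summed myeloid markers stood at 171.1 to 186.2 CPM in SEM::mock and 185.9 to 191.2 in SEM::EGR3, but single genes moved in opposite directions, *CEBPA* from 12.4 to 126.4 CPM and *LYZ* from 154 to 42.6 CPM. Summed T cell markers stood at 85.88 to 97.65 and 66.26 to 69.36 CPM, with *LCK* going from 0.130 to 52.0 CPM and *CD3D* from 57.9 to 6.24 CPM. The marker differences concern all 3 control libraries, so no comparison can be given without them. Their part in the results for the NF-κB genes was not tested, and the vector and any other difference between the cells of the lines cannot be told apart. In bulk RNA, fewer cells of a type and less RNA per cell cannot be told apart.

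*NFKBIE* rose in SEM::EGR3, whereas *NFKB1*, *RELA*, *RELB* and *NFKBIA* fell by a small amount. *NFKB2*, *REL*, *NFKBIB* and *TNFAIP3* did not pass the test. Thus 5 of 9 genes (55.6%) had an adjusted p under 0.05, 1 higher and 4 lower, with edgeR's quasi-likelihood test and Benjamini-Hochberg adjustment over 15465 tested genes. In this comparison 68.5% of all tested genes were called, 36.5% higher and 32.0% lower, so the share among the 9 genes was not above that of all genes. The median log2 fold change of the 9 genes was -0.16, against 0.03 for all tested genes. The median size of the change was 0.25 on the log2 scale, against 0.47 for all tested genes. None of the 9 genes changed by 1 or more on the log2 scale, whereas 2581 tested genes did so upwards and 1315 downwards.

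**Figure D1:**
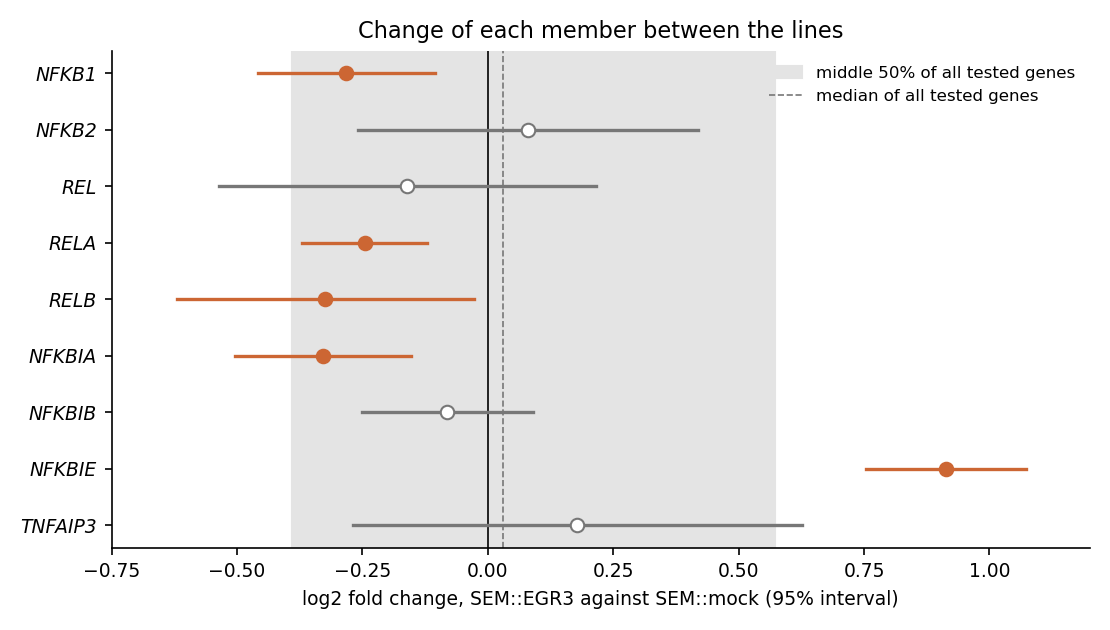
Log2 fold change of each of the 9 genes, SEM::EGR3 against SEM::mock (x axis), with 95% intervals as bars. Filled points passed the test and open points did not, the grey band spans the middle 50% of all tested genes and the dashed line their median. *NFKBIE* at 0.91 lies to the right of the band, and the other 8 points lie inside it.

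*RELA* had the most counts among the 5 subunit genes. It encodes p65, which carries the transactivation domain of the classical dimer. Its gene lies on GRCh38 at chr11:65653596-65663094 (ENSG00000173039). *RELA* stood at 96.3, 99.4 and 104.7 CPM in SEM::mock and 85.4, 85.3 and 82.2 CPM in SEM::EGR3. The lines did not overlap, as was the case for 70.1% of all tested genes. The log2 fold change was -0.25 (SE 0.06, adjusted p = 0.000943), that is 0.843-fold. Of all tested genes, 30.3% changed less than *RELA* did.

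*NFKB1* (ENSG00000109320, chr4:102501329-102617302) encodes the precursor of the DNA-binding subunit that pairs with p65. It stood at 38.5, 39.0 and 45.1 CPM in SEM::mock and at 33.3, 31.3 and 35.8 CPM in SEM::EGR3. Every SEM::EGR3 library was below every SEM::mock library. The change of -0.28 on the log2 scale (SE 0.09, adjusted p = 0.00522) was close in size to that of *RELA*. Both classical subunit genes therefore fell to about the same share of their SEM::mock level, 0.822 for *NFKB1* and 0.843 for *RELA*, with 95% intervals of -0.46 to -0.11 and -0.37 to -0.12 on the log2 scale.

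The subunits of the alternative pathway had fewer counts. *RELB* (ENSG00000104856, chr19:45001430-45038198) encodes the partner of processed NFKB2 in that pathway. It stood at 12.8, 11.7 and 15.8 CPM in SEM::mock and 9.96, 10.1 and 12.2 CPM in SEM::EGR3, and the highest SEM::EGR3 library lay above the lowest SEM::mock library. Its log2 fold change of -0.32 (SE 0.14, adjusted p = 0.0483) passed the test narrowly. The call was lost in 9 of 14 alternative settings, with adjusted p = 0.243 without SEM::mock replicate 3, 0.192 without SEM::EGR3 replicate 1 and 0.0884 without SEM::EGR3 replicate 2.

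*NFKB2* (ENSG00000077150, chr10:102394110-102402529) encodes p100, which acts as an inhibitor until it is processed to a DNA-binding subunit. It had 67, 43 and 44 counts in SEM::mock, or 11.8, 7.17 and 8.59 CPM, and 9.64, 10.2 and 9.36 CPM in SEM::EGR3. All 3 SEM::EGR3 libraries lay inside the range of SEM::mock. The log2 fold change of 0.08 (95% interval -0.26 to 0.42, adjusted p = 0.680) did not pass, and it turned to -0.09 without SEM::mock replicate 2. *REL* (ENSG00000162924, chr2:60881521-60931610) encodes c-Rel, a subunit used mainly in lymphoid cells. It stood at 5.63, 7.01 and 6.84 CPM in SEM::mock and 6.17, 6.04 and 5.06 CPM in SEM::EGR3. These ranges overlapped, and the log2 fold change of -0.16 had a 95% interval of -0.54 to 0.22 (adjusted p = 0.446). Its 32 to 42 counts in the SEM::mock libraries were few, and the value ranged from -0.27, without SEM::mock replicate 1, to -0.08, without SEM::EGR3 replicate 3.

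**Figure D2:**
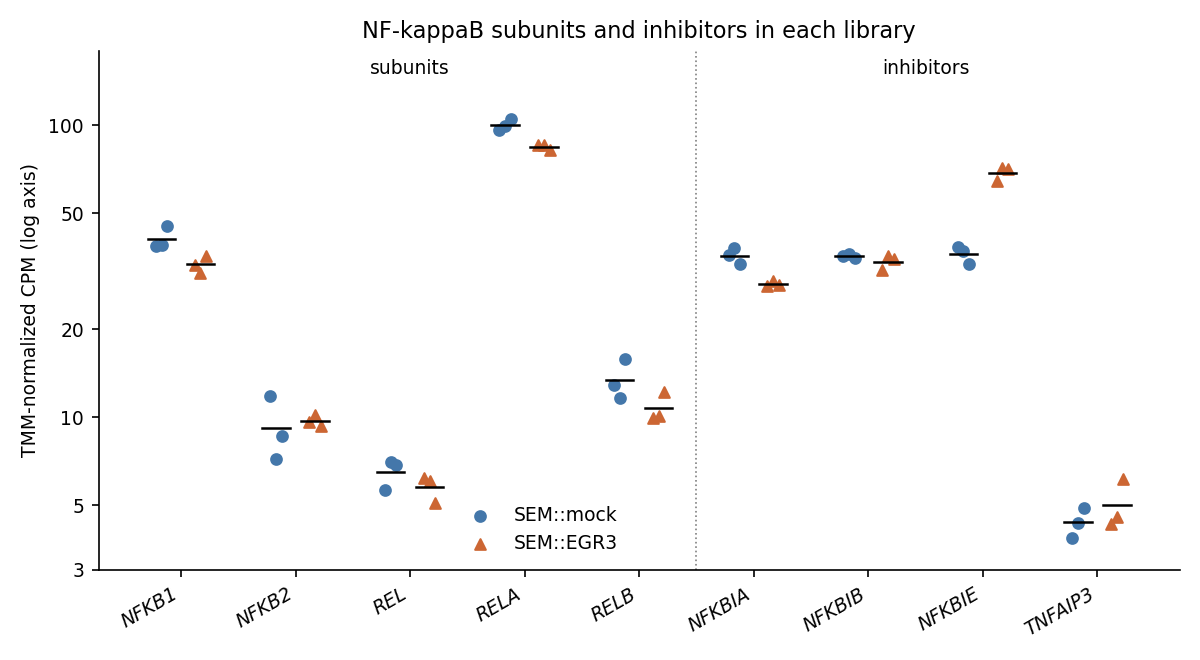
Normalized CPM of each of the 9 genes in each of the 6 libraries, with SEM::mock and SEM::EGR3 side by side and a horizontal line at the mean of 3 libraries. *NFKBIE* lies between 33.4 and 38.4 CPM in SEM::mock and between 64.5 and 71.4 CPM in SEM::EGR3, and the lines also stand apart for *NFKB1*, *RELA* and *NFKBIA*.

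Among the inhibitors, *NFKBIE* (ENSG00000146232, chr6:44258166-44265788) encodes IκBε, an IκB that retains dimers of p65 and c-Rel in the cytoplasm. Its counts were 218, 222 and 171 in the mock line and 1004, 532 and 643 in SEM::EGR3. On the CPM scale these were 38.4, 37.0 and 33.4 against 64.5, 71.4 and 70.8, so that each SEM::EGR3 library stood well above the highest SEM::mock library. The mean rose from 36.3 ± 2.57 to 68.9 ± 3.81 CPM (SD, n = 3 per line). The log2 fold change was 0.91 (SE 0.08, 95% interval 0.75 to 1.07, adjusted p = 1.38e-10), that is 1.88-fold. Of all tested genes, 72.1% changed less than *NFKBIE* did, so changes of this size were common in the comparison.

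*NFKBIA* (ENSG00000100906, chr14:35401511-35404749) encodes IκBα, the best known IκB and itself rapidly induced by NF-κB. It moved in the opposite direction. The libraries stood at 35.9, 38.0 and 33.4 CPM in SEM::mock and 28.1, 29.4 and 28.4 CPM in SEM::EGR3, without overlap. The log2 fold change was -0.33 (SE 0.09, adjusted p = 0.00144), that is 0.796-fold, the largest decrease of the 9 genes in the main comparison.

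*NFKBIB* (ENSG00000104825, chr19:38899700-38908893) encodes IκBβ, which is degraded more slowly than IκBα. It stood at 35.7, 36.4 and 35.2 CPM in SEM::mock and 31.9, 35.7 and 34.8 CPM in SEM::EGR3. The log2 fold change of -0.08 did not pass (95% interval -0.25 to 0.09, adjusted p = 0.397). The gene overlaps *SIRT2* on the opposite strand, and *RELA* and *TNFAIP3* overlap antisense genes, in each case outside the 3′ end. Whether the counting used strand is not given in the sources used here. *REL* overlaps an unnamed transcript on its own strand at its 3′ end.

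*TNFAIP3* (ENSG00000118503, chr6:137867188-137883312) encodes A20, a ubiquitin-editing enzyme that switches off signaling upstream of IKK. It had the fewest counts of the 9 genes, 22, 26 and 25 in SEM::mock and 67, 34 and 56 in SEM::EGR3. As CPM these were 3.87, 4.34 and 4.88 against 4.30, 4.56 and 6.16, with overlapping ranges. The log2 fold change of 0.18 had a 95% interval of -0.27 to 0.63 (adjusted p = 0.478). It went down to 0.02 without SEM::EGR3 replicate 3 and up to 0.32 without SEM::EGR3 replicate 1. The increase seen for *NFKBIE* lies outside the interval.

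Summed over the 5 subunit genes, the level was 170.1 ± 9.45 CPM in SEM::mock and 144 ± 0.989 CPM in SEM::EGR3, without overlap. The 4 inhibitor genes together went the other way, from 112.2 ± 4.71 to 136.6 ± 6.80 CPM (SD, n = 3 per line), also without overlap. Of the 4, only *NFKBIE* was called higher, from 36.3 to 68.9 CPM. *NFKBIA* was called lower, and *NFKBIB* and *TNFAIP3* did not pass, so the higher sum does not describe the inhibitors as a class. These sums are descriptions with no test. CPM values count 3′ ends and are not scaled to transcript length.

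Shares within a library stood apart between the lines for the 3 IκB genes and overlapped for each of the 5 subunit genes. *NFKBIE*, *NFKBIA* and *NFKBIB* had nearly equal shares of the 4 inhibitor genes in SEM::mock, with 32.3% ± 1.25, 31.9% ± 0.852 and 31.9% ± 0.874. In SEM::EGR3 the share of *NFKBIE* was 50.1%, 50.6% and 50.5%, while *NFKBIA* held 20.3% to 21.9% and *NFKBIB* 24.7% to 25.3%. A share also falls when another gene of the sum rises. The level of *NFKBIB* itself, 35.7 CPM in SEM::mock and 34.1 CPM in SEM::EGR3 on average, overlapped and did not pass the test. *TNFAIP3* held 3.91% ± 0.601 and 3.66% ± 0.643. Of the 5 subunit genes *RELA* held 58.9% ± 1.43 in SEM::mock and 58.6% ± 1.51 in SEM::EGR3, and *NFKB1* 24.0% ± 0.815 and 23.2% ± 1.43.

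Ratios of counts within a library do not depend on how libraries are scaled. *NFKBIE* had 0.974 to 1.069 counts per count of *NFKBIA* in SEM::mock and 2.29 to 2.49 in SEM::EGR3. The mean log2 ratio rose from 0.02 ± 0.07 to 1.26 ± 0.06. *NFKBIB* to *NFKBIA* had log2 ratios of 0.00 ± 0.07 and 0.25 ± 0.06, also without overlap. *TNFAIP3* to *NFKBIA* had log2 ratios of -3.04 ± 0.23 and -2.53 ± 0.29, on few counts of *TNFAIP3*. *NFKB2* to *NFKB1*, *RELB* to *RELA* and *REL* to *RELA* differed by 0.40, -0.07 and 0.07 on the log2 scale, with overlapping libraries. The first of these moved to 0.64 without SEM::mock replicate 1 and to 0.27 without SEM::mock replicate 2. *RELB* to *RELA* turned to 0.02 without SEM::mock replicate 3 and reached -0.19 without SEM::EGR3 replicate 3, and *REL* to *RELA* went to 0.00 without SEM::mock replicate 1 and to 0.15 without SEM::EGR3 replicate 3. The ratios are given as descriptions with no test, since with 3 libraries per line the smallest p of an exact permutation test is 0.10.

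**Figure D3:**
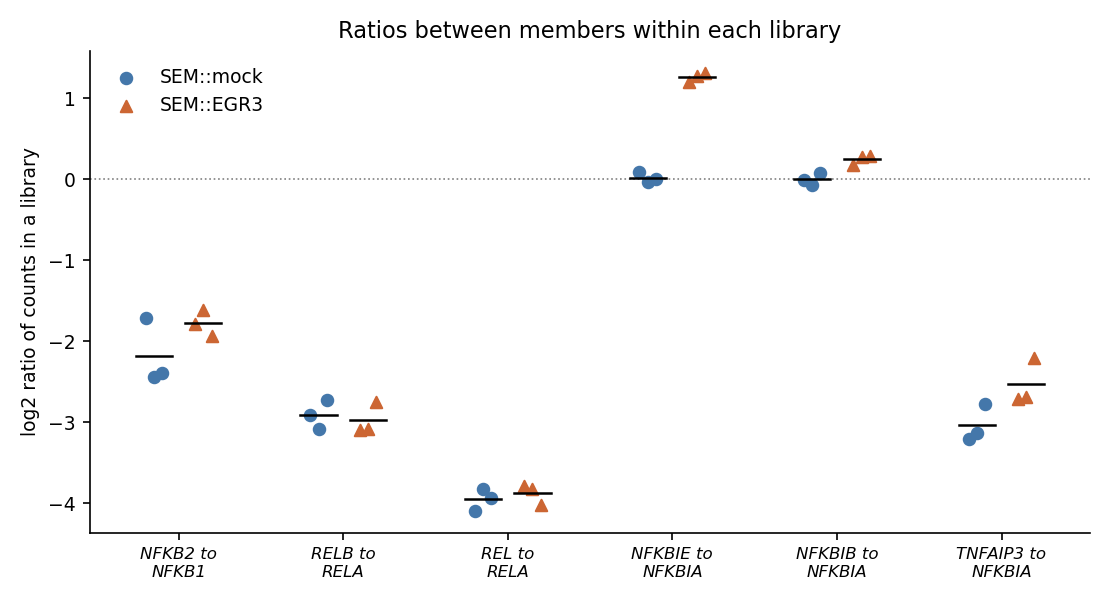
Log2 ratio of the counts of pairs of genes (y axis) in each library, with SEM::mock as circles, SEM::EGR3 as triangles and a line at the mean of 3 libraries. The ratio of *NFKBIE* to *NFKBIA* lies near 0 in SEM::mock and at 1.26 on average in SEM::EGR3, and the 3 subunit ratios overlap.

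Genes outside the pathway lists with the most similar pattern were found by the distance of centred log2 CPM values over the 6 libraries, among 10042 genes. *NFKBIE* was nearest to *SLC66A2*, at 0.0161, and *CLIP2* lay at 0.0416. *NFKBIA* was nearest to *LRRC59*, *SRD5A3* and *BRD2*, at 0.0235, 0.0261 and 0.0299. Distances of this size say that the genes followed each other across these libraries and no more.

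Of 99 further genes of the pathway, 97 were found in the table and 75 were tested. Of these 75, 18 rose and 29 fell (62.7% called, against 68.5% of all tested genes), and the median log2 fold change was -0.10. Of the 75, 5 passed the count filter only through SEM::EGR3, among them *TNFRSF13C*, and 2 only through SEM::mock, so their direction was fixed by the filter.

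Of 6 genes listed for other IκB and related proteins, 3 fell, 3 did not pass and none rose (50% called, against 68.5% of all tested genes). Those that fell were *BCL3*, *NFKBIZ* and *NKRF*. Of this list, *NKRF* and *IKBIP* do not encode IκB proteins. *BCL3*, a nuclear IκB that binds dimers of the NFKB1 and NFKB2 products, fell from 18.5 ± 3.04 to 5.24 ± 0.362 CPM (log2 fold change -1.80, SE 0.15, adjusted p = 1.34e-10). *NFKBIL1*, the most counted gene of the list, stood at 28.5 ± 3.26 and 26.6 ± 2.34 CPM and did not pass (adjusted p = 0.308).

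Among 15 IKK and upstream kinase genes, 5 fell, 2 rose and 8 did not pass (46.7% called, against 68.5% of all tested genes). *MAP3K8*, a kinase held by the NFKB1 precursor, fell from 11.6 ± 0.618 to 2.91 ± 0.168 CPM (SE of the log2 fold change 0.18, adjusted p = 2.96e-10). *IRAK1*, a kinase of Toll-like and interleukin-1 receptor signaling, stood between 234.5 and 259.05 CPM in SEM::mock and between 115.9 and 123.5 CPM in SEM::EGR3 (-1.06, adjusted p = 1.99e-14). The IKK subunit genes were singled out after their values were seen. *IKBKB* and *IKBKG* fell by 0.38 and 0.58 on the log2 scale (adjusted p = 0.000636 and 4.26e-05), and *CHUK* at -0.13 did not pass (adjusted p = 0.245).

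Of 15 tested adaptor and ubiquitin ligase genes, 7 fell and 4 rose (73.3% called, against 68.5% of all tested genes). *UBE2N*, the ubiquitin-conjugating enzyme of lysine-linked signaling chains, fell from 237 ± 2.62 to 149.9 ± 7.35 CPM (log2 fold change -0.66, adjusted p = 1.08e-10). Among 12 brakes other than *TNFAIP3*, 2 rose, 2 fell and 8 did not pass (33.3% called, against 68.5% of all tested genes). *TAX1BP1*, an adaptor of A20 and the most counted of them, rose from 118.9 ± 2.55 to 131.7 ± 0.539 CPM (0.15, adjusted p = 0.0217).

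Receptors and ligands held the largest increases of the lists, in genes that passed the count filter only through SEM::EGR3. *TNFRSF13C*, which encodes the BAFF receptor of B cells, was counted 8, 8 and 6 times in SEM::mock against 833, 384 and 440 times in SEM::EGR3 (log2 fold change 5.28, SE 0.16, adjusted p = 1.86e-19). It is a B lineage gene and moved in the same direction as the proB markers above. *TNFRSF1B*, a receptor of TNF, rose from 87.5 ± 2.12 to 109.3 ± 1.64 CPM (0.32, adjusted p = 3.97e-05), and *LTBR*, the lymphotoxin β receptor that feeds the alternative pathway, fell from 73.7 ± 4.22 to 25.5 ± 0.912 CPM (-1.53, adjusted p = 3.99e-15). Of 8 tested receptors 3 rose and 2 fell (62.5% called, against 68.5% of all tested genes). Of those that rose, 2, *TNFRSF13C* among them, passed the count filter only through SEM::EGR3 and could not have come out lower. Of 8 listed ligand genes, 4 were tested and all 4 were called higher, but *TNF* and *LTA* passed the count filter only through SEM::EGR3 and could not have come out lower. *TNF*, an activator of the classical pathway, was at 0 in each of the SEM::mock libraries and at 113, 75 and 103 counts in SEM::EGR3, at least 17.8-fold higher when each SEM::mock library is set at 3 counts (adjusted p = 4.71e-11). Its 9.55 ± 2.09 CPM in SEM::EGR3 was the highest mean of the ligands in either line.

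Genes known as targets of NF-κB moved in both directions, mostly downwards. Of 15 tested target genes 10 fell, 3 rose and 2 did not pass (86.7% called). Of all tested genes 68.5% were called, 32.0% lower and 36.5% higher. The median log2 fold change of the targets was -0.70, against 0.03 for all tested genes. Of the 15, 1 passed the count filter only through SEM::EGR3 and 2 only through SEM::mock, so their direction was fixed by the filter. *ICAM1*, an adhesion molecule, fell from 33.6 ± 2.63 to 7.35 ± 0.266 CPM (log2 fold change -2.20, adjusted p = 9.84e-15). *CCL2*, a monocyte chemokine, fell from 11.1 ± 3.04 to 1.27 ± 0.192 CPM (-3.15, adjusted p = 3.22e-11). It passed the count filter only through SEM::mock and could not have come out higher. *CFLAR*, an inhibitor of caspase 8 activation, fell from 151.2 ± 1.49 to 48.1 ± 1.19 CPM (-1.65, adjusted p = 9.49e-18).

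*IER3*, an early response gene, fell from 110.7 ± 1.55 to 33.0 ± 4.19 CPM (log2 fold change -1.77, adjusted p = 4.24e-16). *CD44*, an adhesion receptor, fell from 98.1 ± 3.21 to 42.2 ± 3.68 CPM (-1.23, adjusted p = 6.95e-14). Higher in SEM::EGR3 were *GADD45B*, a stress response gene, with 3.10 ± 0.371 and 16.0 ± 2.06 CPM (2.39, adjusted p = 2.31e-11), and *BCL2L1*, which encodes the survival protein Bcl-xL, with 267.7 ± 10.6 and 357.2 ± 15.8 CPM (0.41, adjusted p = 2.93e-07). The target list holds genes that other factors regulate as well.

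**Figure D4:**
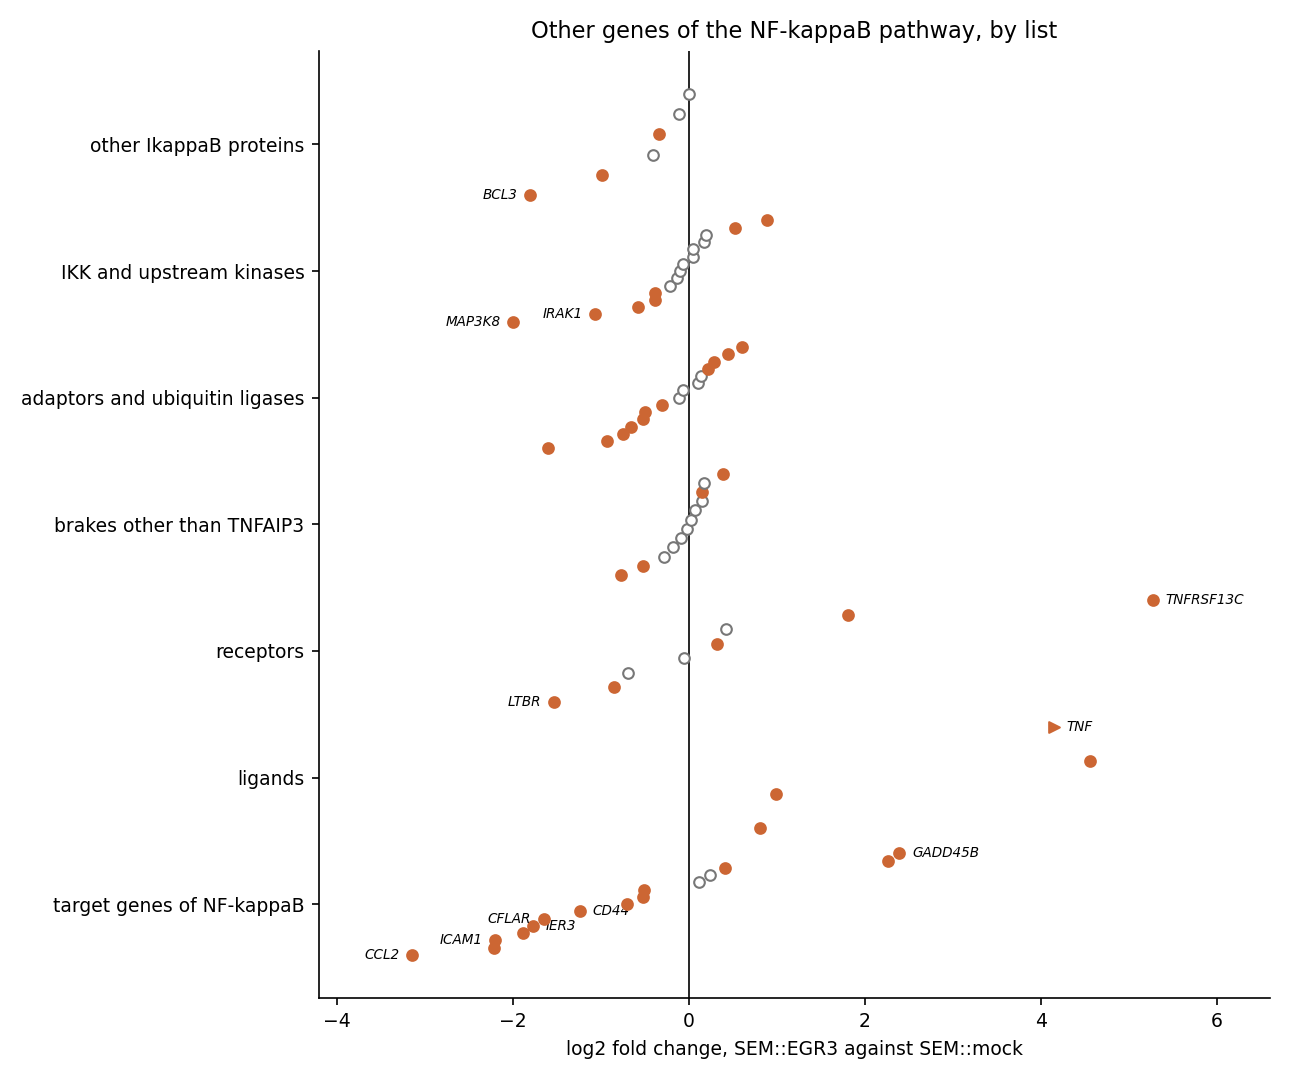
Log2 fold change, SEM::EGR3 against SEM::mock (x axis), of the 75 tested pathway genes in 7 lists (y axis). Filled points passed the test, open points did not, and the triangle places *TNF* at its lower bound. The target list spreads from *CCL2* at -3.15, a direction fixed by the count filter, to *GADD45B* at 2.39.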

How the data were processed

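The authors deposited whole-number read counts per gene for 3 SEM::mock and 3 SEM::EGR3 MACE-Seq libraries, without normalization. The headings spell the transgene ERG3 and were matched to SEM::EGR3 by replicate number. Per the labels, GRCh38, bcl2fastq, Bowtie2 and HTSeq were used, while versions, annotation, strand setting and the use of molecular identifiers are not given in the sources used here. Another 12 per-sample columns, which hold the same libraries rescaled, the group means and the authors' own fold changes and p-values were not used.

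Lines were compared with edgeR 4.0.16 under R 4.3.3 (filterByExpr, TMM, glmQLFit, glmQLFTest) over all 6 libraries, with Benjamini-Hochberg adjustment over 15465 genes and a threshold of 0.05. A call is an adjusted p under that threshold. CPM are counts per 1000000 of the library total times its TMM factor. DESeq2 1.42.0 was an alternative. The procedure was tested on simulated data. A floor of 3 counts covers counting error only. No pair of replicates agreed within sampling noise (chi-square per gene 1.708 to 3.324).

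The genes and lists were chosen with earlier results of these data known. Named from each list were called genes with a log2 fold change of at least 1 in size and 10 CPM in the higher line, and the gene with the highest mean in either line. Of the markers, at most the 3 most abundant genes of a list were named. Genes most like a member were sought for the called genes with the largest increase and decrease. Gene positions came from GENCODE v29 (97.0% of identifiers matched) and promoters from RefSeq. Some items are not reported here.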

Additional observations from a re-analysis of the deposited data

How the results depend on the processing

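The 9 genes were refitted under 14 alternatives (another tool, 3 scalings, 2 filters, thinning to the smallest library, a replicate block and leaving out each library). *NFKB1*, *RELA*, *NFKBIA* and *NFKBIE* kept direction and call in all 14, with *NFKBIE* between 0.85 and 0.99 and *NFKBIA* between -0.39 and -0.25 on the log2 scale. *RELB* lost its call in 9, with adjusted p between 0.0197 and 0.282, and the cause was not tested. *NFKB2*, which did not pass in any setting, ranged from -0.0948, without SEM::mock replicate 2, to 0.29. Thinning lowered the log2 ratio difference of *NFKBIB* to *NFKBIA* from 0.25 to 0.17. It turned that of *RELB* to *RELA* from -0.07 to 0.08, moved *REL* to *RELA* from 0.07 to 0.20 and took *NFKB2* to *NFKB1* from 0.40 to 0.28. Calls over all genes ranged from 8481 to 11968, over unlike numbers of tested genes. The lowest count was 66.3% of 12801, with at least 10 counts in every library, and the highest 35.1% of 34056, without a filter. *REL*, *RELB*, *NFKB2* and *TNFAIP3* had the fewest counts. The replicate numbers did not pair the libraries (correlations of deviations -0.12, -0.0766 and -0.038), and with the replicate block 10082 genes and 5 of the 9 were called, against 10593 and 5 without it. No sample correlated best with its own number. No scaling moved the median of all genes by more than 0.0756 on the log2 scale.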
